A study of Rattus norvegicus with 12 samples.

Results

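Sulfation adds a charged sulfate group to phenols, steroids, thyroid hormones and drugs, which makes them more soluble and easier to excrete. A transporter brings sulfate into the cell, a PAPS synthase turns it into the activated donor PAPS, and cytosolic sulfotransferases pass the sulfate from PAPS to the substrate. In rat liver several of these enzymes are known to differ between the sexes under the control of growth hormone, and sulfotransferase genes are among the genes that nuclear receptors for drugs and bile acids can act on.

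The genes described here are the sulfate transporter gene Slc13a4, the PAPS synthase gene Papss2 and the cytosolic sulfotransferase genes Sult1a1, Sult1b1, Sult1c2, Sult1c3, Sult1e1 and Sult2a1, 8 genes in all. They were found by their symbols in the platform annotation, with symbols updated through the Entrez ID. They have 9 probe sets assigned to 1 gene, out of 31042 probe sets without controls, and 8 of the 9, for 7 of the 8 genes, were bright enough to be tested among 21729 (11842 genes). The ninth, for Sult2a1, was among the 30% of probe sets with the lowest mean. A further probe set is annotated to several genes, with Sult1c2 as one of them, and is described apart from the 8 genes.

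Liver RNA came from adult male Sprague-Dawley rats aged 10 weeks that were dosed by gavage at intervals of 24 h for 72 h, and the RNA of each rat was hybridised to a separate Affymetrix rat expression array. Of the 4 groups of 3 rats, one was given myclobutanil and another propiconazole, both at 300 mg/kg/day, one was given triadimefon at 175 mg/kg/day, and one was the control, and what the control rats received is not stated in the labels. All 3 compounds are triazole fungicides, of which propiconazole has a dioxolane ring, triadimefon a ketone with an aryl ether, and myclobutanil a nitrile group beside its butyl chain. Levels are given on the log-like scale of the deposited table, quantile normalized here. Neither its logarithm base nor its centring is known, so differences are in log-like units and no fold change is given. Levels are compared between groups for 1 probe set at a time, never between probe sets.

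The liver identity of the samples was checked on hepatocyte markers, of which 11 of 12 were tested, and their mean level lay between 2.83 and 3.17 on all 12 arrays. The mean level of 8 of 10 Kupffer cell markers was 0.29 to 0.90 in myclobutanil, 1.12 to 1.25 in propiconazole, 1.06 to 1.23 in triadimefon and 1.21 to 1.33 in control. In these bulk samples, fewer cells of a type and less RNA per cell cannot be told apart. Myclobutanil replicate 1 stood apart, with a deposited median of 0.157 where the highest of the other 11 arrays was 0.0552. As a measure of RNA quality, the signal of the 3′ GAPDH control exceeded that of the 5′ one by 0.624 ± 0.128 in myclobutanil, 0.434 ± 0.106 in propiconazole, 0.587 ± 0.212 in triadimefon and 0.659 ± 0.252 in control (SD, n = 3 each).

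The promoter windows of the genes past the test, Slc13a4 and Sult1c2, and of the estrogen sulfotransferase gene Sult1e1 are shown, since the first pair carries the calls below and Sult1e1 had the largest difference among the sulfotransferase genes of the 8 with propiconazole. Each window runs from 250 bases before to 50 bases after the gene's start in RefSeq (build GRCr8), 5′ to 3′ on the gene's strand, at chr4:64955937-64956236 (minus strand) for Slc13a4, chr9:7436731-7437030 (plus strand) for Sult1c2 and chr14:20701230-20701529 (plus strand) for Sult1e1. Capitals mark AGGTCA or AGTTCA on either strand, the half-sites that many nuclear receptors bind.
Slc13a4: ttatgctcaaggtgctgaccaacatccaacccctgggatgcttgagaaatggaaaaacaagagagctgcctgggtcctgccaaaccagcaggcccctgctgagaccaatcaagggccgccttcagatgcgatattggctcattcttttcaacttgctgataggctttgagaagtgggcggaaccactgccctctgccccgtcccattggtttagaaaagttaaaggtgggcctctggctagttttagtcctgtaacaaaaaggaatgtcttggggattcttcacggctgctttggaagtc
Sult1c2: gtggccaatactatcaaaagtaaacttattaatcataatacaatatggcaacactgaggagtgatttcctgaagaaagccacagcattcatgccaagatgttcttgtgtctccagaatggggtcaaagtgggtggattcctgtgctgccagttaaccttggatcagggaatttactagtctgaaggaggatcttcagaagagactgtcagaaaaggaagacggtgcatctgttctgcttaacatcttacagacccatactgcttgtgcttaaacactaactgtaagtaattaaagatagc
Sult1e1: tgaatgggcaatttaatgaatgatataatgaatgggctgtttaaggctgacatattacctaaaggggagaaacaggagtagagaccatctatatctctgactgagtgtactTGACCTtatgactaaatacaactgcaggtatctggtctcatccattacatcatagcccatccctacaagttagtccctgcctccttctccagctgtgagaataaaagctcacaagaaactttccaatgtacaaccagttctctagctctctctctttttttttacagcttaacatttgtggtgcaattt
The Sult1e1 window held 1 such half-site, AGGTCA on the opposite strand, which reads TGACCT here, and the Slc13a4 and Sult1c2 windows held none. All 8 genes had a window in the table, and 3 of the 8 held either half-site, against 27.9% of all 33469 promoter windows of that length. Of the other letters searched on both strands, the xenobiotic response element core GCGTG was in 0 of the 8 windows and 29.7% of all, the STAT site TTCNNNGAA in 0 and 8.87%, the antioxidant response element core TGACNNNGC in 0 and 12.1%, and the TATA box TATAAA in 2 and 14.2%. These matches describe the letters of the windows.

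Slc13a4, which encodes a sodium-coupled sulfate transporter, was lower in the liver after all 3 compounds, and it was the one gene of the 8 that passed the test with each of them. Its level was 0.80, 0.58 and 0.35 in the myclobutanil rats, 0.77, 0.78 and 0.76 in the propiconazole rats, 0.79, 0.68 and 0.61 in the triadimefon rats, and 1.59, 1.49 and 1.39 in the control rats. All 9 treated livers lay below all 3 control livers, and the treated groups overlapped one another. The share of all probe sets with all 9 treated livers on 1 side of control was not counted. Slc13a4 fell by 0.91 ± 0.10 with myclobutanil, by 0.72 ± 0.10 with propiconazole and by 0.79 ± 0.10 with triadimefon (difference ± SE, with limma adjusted p-values of 0.00386, 0.0113 and 0.0101 from 3 arrays in each group). These 3 comparisons share the control arrays, so they are not independent of each other. With 1 array left out, the differences ran from -1.02 to -0.80, from -0.77 to -0.67 and from -0.84 to -0.74. The propiconazole call was lost without control replicate 1 or 2 or propiconazole replicate 1 or 3 (limma adjusted p = 0.0503, 0.0559, 0.0524 and 0.0541). Calls over all probe sets fell from 311 to 54, 43, 49 and 46 in these fits. The triadimefon call was lost without control replicate 1 or triadimefon replicate 2 (limma adjusted p = 0.0517 and 0.0533), where calls over all probe sets fell from 167 to 10 and 6. The myclobutanil call held whichever array was left out, with a limma adjusted p of 0.000805 without myclobutanil replicate 1. It was lost in the fit of the 6 arrays of its 2 groups alone (limma adjusted p = 0.0948). That fit called 8 of all probe sets, against 395 in the main fit.

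**Figure D1:**
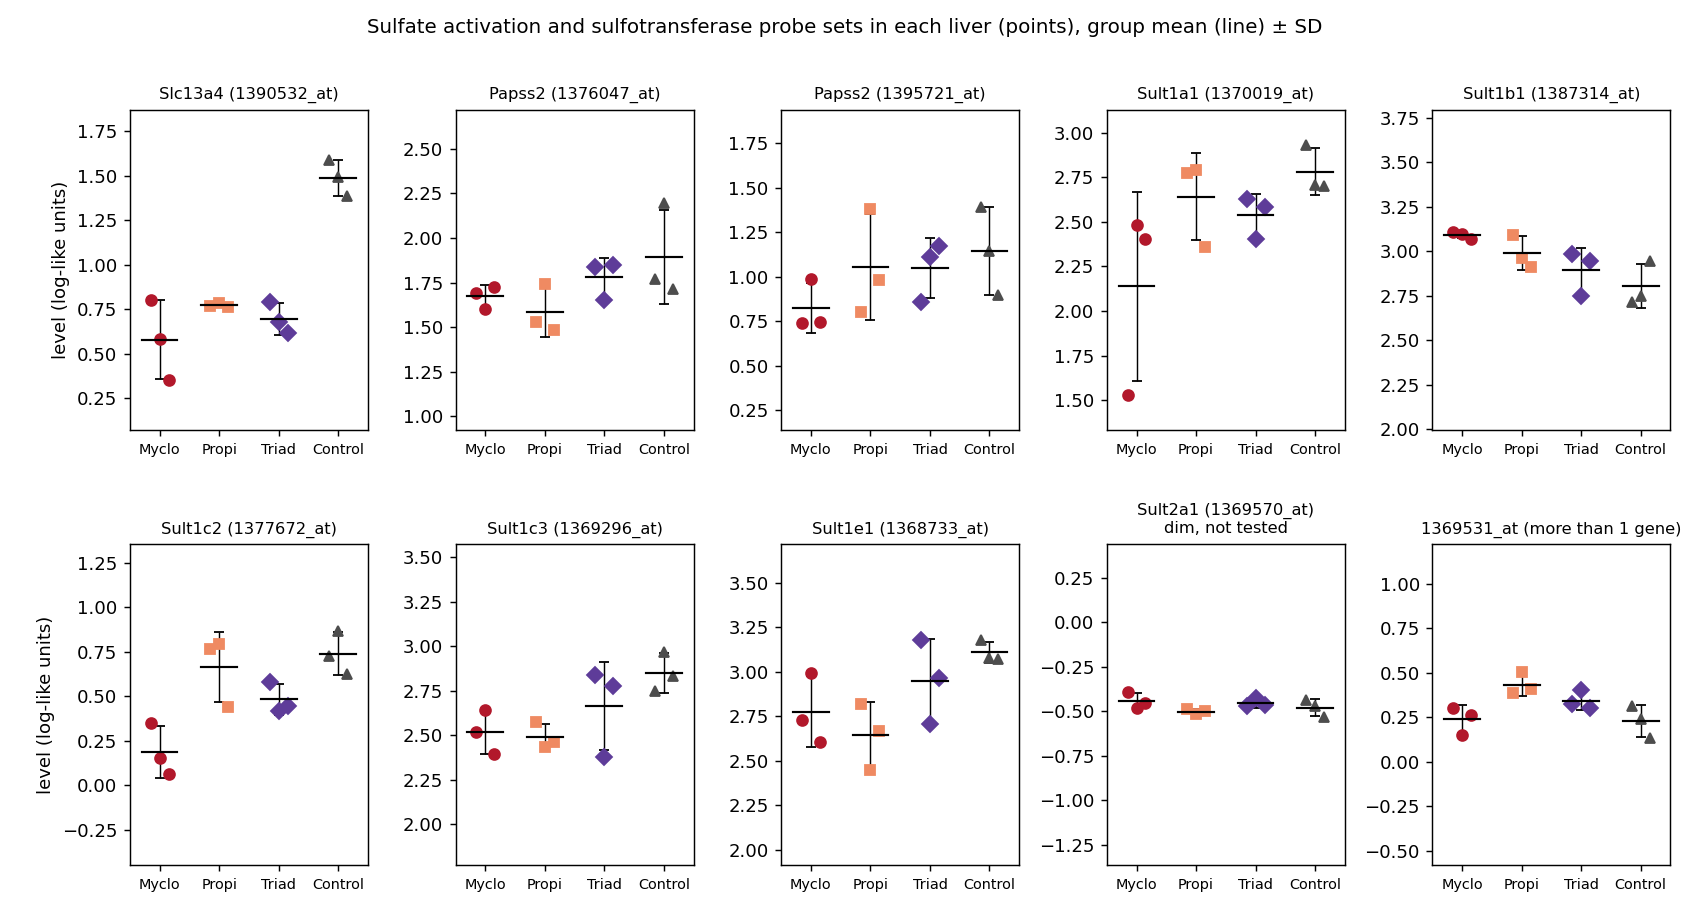
Level of each probe set of the 8 genes, and of the one annotated to several genes, in every liver (y axis, log-like units; every panel spans the same width of the scale); points are single rats, lines are group means and bars are SDs (n = 3 rats per group). In the Slc13a4 panel the 9 treated livers sit between 0.35 and 0.80, and the 3 control livers sit between 1.39 and 1.59.

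Papss2 encodes a PAPS synthase, with its sulfurylase and kinase activities in 1 protein. On the brighter of its 2 probe sets the level was 1.69, 1.60 and 1.72 with myclobutanil, 1.53, 1.74 and 1.48 with propiconazole, 1.84, 1.65 and 1.85 with triadimefon, and 1.77, 2.20 and 1.71 in control. Every treated group overlapped the control group, whose replicate 2 was the highest of the 12 arrays. The differences from control were -0.22 ± 0.13 with myclobutanil, -0.31 ± 0.13 with propiconazole and -0.11 ± 0.13 with triadimefon, none of which passed (limma adjusted p = 0.337, 0.288 and 0.75). On the dimmer probe set they were -0.32 ± 0.16, -0.09 ± 0.16 and -0.10 ± 0.16 in the same order (limma adjusted p = 0.275, 0.856 and 0.845). Both probe sets were below control on average with every compound, and each treated group overlapped control on both.

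Sult1c2, a class 1C sulfotransferase gene, fell with myclobutanil and was the one sulfotransferase gene past the test in any comparison. The level was 0.35, 0.15 and 0.06 with myclobutanil, 0.76, 0.79 and 0.44 with propiconazole, 0.58, 0.42 and 0.45 with triadimefon, and 0.72, 0.86 and 0.62 in control. The myclobutanil livers lay below every other liver, the triadimefon livers lay below the control livers, and the propiconazole livers overlapped control. Sult1c2 fell by 0.55 ± 0.11 with myclobutanil (limma adjusted p = 0.0322). The difference from control was -0.25 ± 0.11 with triadimefon and -0.07 ± 0.11 with propiconazole, and neither passed (limma adjusted p = 0.322 and 0.812). The myclobutanil difference ran from -0.63 to -0.49 with 1 array left out. It no longer passed without control replicate 1, 2 or 3 or myclobutanil replicate 3 (limma adjusted p = 0.094, 0.102, 0.0827 and 0.092). Calls over all probe sets fell from 395 to 90, 77, 30 and 122 in these fits. Nor did it pass in the fit of the 6 arrays of its 2 groups alone (limma adjusted p = 0.134), where 8 of all probe sets were called. Without myclobutanil replicate 1 it had a limma adjusted p of 0.0178, with 667 of all probe sets called.

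The probe set annotated to several genes, Sult1c2 included, had another order of groups. Its level was 0.30, 0.15 and 0.26 with myclobutanil, 0.39, 0.51 and 0.41 with propiconazole, 0.32, 0.40 and 0.30 with triadimefon, and 0.31, 0.24 and 0.14 in control. The myclobutanil livers overlapped control, and the propiconazole livers lay above control. The differences were 0.01 ± 0.06 with myclobutanil, 0.21 ± 0.06 with propiconazole and 0.11 ± 0.06 with triadimefon (limma adjusted p = 0.937, 0.13 and 0.436). In RefSeq, Sult1c2 lies next to a close copy, Sult1c2al1, which in turn lies next to Sult1c3. Of the 300 bases of the Sult1c2 window, 162 could be aligned with that of Sult1c2al1, with 90.1% identity. The windows of Sult1c2 and Sult1c3 aligned over too few bases to be given. Probe sequences were not examined, so how far the class 1C probe sets read each other's transcripts is uncertain.

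Sult1c3, known in rats for activating N-hydroxy arylamines, and Sult1e1, the estrogen sulfotransferase gene, are both known as male-biased in rat liver. The Sult1c3 level was 2.52, 2.64 and 2.40 with myclobutanil, 2.57, 2.43 and 2.46 with propiconazole, 2.84, 2.38 and 2.77 with triadimefon, and 2.75, 2.97 and 2.83 in control. All livers given myclobutanil or propiconazole lay below the control livers, and those given triadimefon overlapped them. The differences of Sult1c3 from control were -0.33 ± 0.12 with myclobutanil, -0.36 ± 0.12 with propiconazole and -0.19 ± 0.12 with triadimefon, none past the test (limma adjusted p = 0.15, 0.182 and 0.544).

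Sult1e1 had the same order of groups against control. Its level was 2.73, 2.99 and 2.60 with myclobutanil, 2.82, 2.45 and 2.66 with propiconazole, 3.17, 2.71 and 2.97 with triadimefon, and 3.18, 3.08 and 3.07 in control. Livers given myclobutanil or propiconazole were again below all control livers, and those given triadimefon overlapped control. The differences of Sult1e1 were -0.33 ± 0.13, -0.47 ± 0.13 and -0.16 ± 0.13 for myclobutanil, propiconazole and triadimefon (limma adjusted p = 0.192, 0.131 and 0.656). In the fit of the 6 propiconazole and control arrays alone, Sult1e1 passed (limma adjusted p = 0.0484). That fit called 648 of all probe sets, against 311 in the main fit. Sult1c3 and Sult1e1 lie on different chromosomes. Their levels had a Pearson correlation of 0.885 over the 12 arrays, which share groups and normalization, and of 0.77 after the group means were taken out. Both were the highest values of any pair of the 7 tested genes, and the lowest were -0.636 and -0.502.

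Sult1a1 encodes the main phenol sulfotransferase of rat liver. Its level was 1.53, 2.48 and 2.41 with myclobutanil, 2.77, 2.79 and 2.36 with propiconazole, 2.63, 2.40 and 2.58 with triadimefon, and 2.93, 2.71 and 2.70 in control. Myclobutanil replicate 1, the array that stood apart, was the lowest of the 12. The myclobutanil and triadimefon livers lay below control, and the propiconazole livers overlapped it. The differences from control were -0.64 ± 0.22 with myclobutanil, -0.14 ± 0.22 with propiconazole and -0.25 ± 0.22 with triadimefon (limma adjusted p = 0.134, 0.827 and 0.672). Without myclobutanil replicate 1 the myclobutanil difference was -0.34 ± 0.13 (limma adjusted p = 0.165). On the deposited values without quantile normalization it was -0.90 ± 0.20 and passed (limma adjusted p = 0.0481).

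Sult1b1, whose enzyme sulfates thyroid hormones and phenols, stood above control on average with every compound after quantile normalization, while each of the other 6 tested genes stood below control. The Sult1b1 level was 3.11, 3.10 and 3.07 with myclobutanil, 3.09, 2.96 and 2.91 with propiconazole, 2.99, 2.75 and 2.95 with triadimefon, and 2.72, 2.75 and 2.95 in control. After quantile normalization the myclobutanil livers lay above all control livers, and the other treated livers overlapped them. The differences were 0.29 ± 0.08, 0.19 ± 0.08 and 0.09 ± 0.08 for myclobutanil, propiconazole and triadimefon, and none passed (limma adjusted p = 0.0996, 0.344 and 0.69). With array weights the myclobutanil difference was 0.30 ± 0.07 and passed (limma adjusted p = 0.0303). That fit called 1668 of all probe sets, against 395 in the main fit. With the deposited values as given the differences were 0.06, -0.04 and -0.10, and with each array centred on its median 0.04, -0.03 and -0.09. The sign with propiconazole and triadimefon, and the size with myclobutanil, thus depended on the normalization. On the deposited values the myclobutanil difference was 0.06 ± 0.21 (limma adjusted p = 0.907). The myclobutanil livers, at 3.44, 2.93 and 2.73, then overlapped the control livers, at 2.69, 2.83 and 3.39. Sult1e1, Sult1d1 and Sult1b1 follow one another on chromosome 14 of the RefSeq assembly. Sult1d1 was dim, with mean levels of -0.65 in myclobutanil, -0.68 in propiconazole, -0.64 in triadimefon and -0.65 in control.

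Sult2a1 encodes a hydroxysteroid and bile acid sulfotransferase that is known as female-biased in rat liver, and its probe set was dim in these males. The level was -0.39, -0.48 and -0.45 with myclobutanil, -0.49, -0.52 and -0.50 with propiconazole, -0.47, -0.43 and -0.46 with triadimefon, and -0.44, -0.47 and -0.53 in control. Every treated group overlapped control. In the fit without the filter on dim probe sets, the differences from control were 0.04 ± 0.03 with myclobutanil, -0.02 ± 0.03 with propiconazole and 0.03 ± 0.03 with triadimefon (limma adjusted p = 0.506, 0.87 and 0.827). Its relative Sult2a6, in the list of other sulfotransferases, had a bright enough probe set, with levels of 0.46, 1.58 and 1.80 with myclobutanil, 1.05, 0.51 and 1.03 with propiconazole, 1.37, 1.69 and 1.12 with triadimefon, and 0.93, 0.74 and 0.32 in control. The triadimefon livers lay above the control livers and the other treated livers overlapped them, with differences of 0.62 ± 0.31, 0.20 ± 0.31 and 0.73 ± 0.31 for myclobutanil, propiconazole and triadimefon, none past the test (limma adjusted p = 0.276, 0.825 and 0.333). Sult2a6 was singled out after its values were seen.

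The Sult2a1 and Sult2a6 windows are printed side by side to show how alike these copies are. They lie at chr1:84638898-84639197 and chr1:84097759-84098058 (RefSeq, build GRCr8, minus strand, 5′ to 3′), and capitals mark the 8 of 300 bases at which they differ.
Sult2a1: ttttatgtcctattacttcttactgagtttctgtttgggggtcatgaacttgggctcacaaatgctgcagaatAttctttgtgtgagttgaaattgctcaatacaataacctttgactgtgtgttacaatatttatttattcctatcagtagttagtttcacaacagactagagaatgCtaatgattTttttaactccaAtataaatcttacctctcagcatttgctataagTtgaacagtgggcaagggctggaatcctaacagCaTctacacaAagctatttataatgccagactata
Sult2a6: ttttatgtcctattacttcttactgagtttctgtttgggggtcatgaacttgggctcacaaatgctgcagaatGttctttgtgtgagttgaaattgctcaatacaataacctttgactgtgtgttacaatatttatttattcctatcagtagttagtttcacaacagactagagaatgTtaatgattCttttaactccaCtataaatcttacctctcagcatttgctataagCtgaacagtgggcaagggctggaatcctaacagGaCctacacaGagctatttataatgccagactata
The identity was 97.3%, and 90.1% over the 282 bases that could be aligned between Sult2a1 and Sult2a2. The share of signal that a Sult2a probe set takes from the transcripts of a copy is uncertain.

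Over the genes as a set, 2 of the 7 tested fell with myclobutanil (Slc13a4 and Sult1c2), 1 with propiconazole and 1 with triadimefon (Slc13a4 in both), and none rose (at an unadjusted p under 0.05, limma put 1, 1 and 0 above control and 5, 4 and 2 below it). Over all probe sets, 21.1%, 14.5% and 13.4% had an unadjusted p under 0.05 in either direction with myclobutanil, propiconazole and triadimefon. Among all 21729 probe sets, 0.787% were called lower with myclobutanil, 0.621% with propiconazole and 0.281% with triadimefon. The treated and control groups did not overlap for 6, 3 and 3 of the 7 genes, against 23.3%, 27.8% and 28.3% of all probe sets. The median difference of the 7 genes was -0.33 with myclobutanil, -0.31 with propiconazole and -0.19 with triadimefon, against -0.01 over all probe sets in each comparison. The 3 sets of values share the control arrays. The genes were chosen with earlier results of these data known, so these numbers describe the set and do not test it. The probe sets of the 7 genes ranked from the 78.8 to the 99.5 percentile of mean level, and all probe sets are not matched to them in brightness. In the myclobutanil livers the Kupffer cell markers were also lower, as given above, with 5 of the 8 tested past the test (Clec4f, Cd5l, C1qa, C1qc and Adgre1), and their part in these results was not tested.

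The mean levels of the endothelium and cholangiocyte marker lists also stood apart from control in all 9 treated livers. The mean level of 7 of 8 endothelium markers was 0.66 to 0.77 in myclobutanil, 0.61 to 0.73 in propiconazole, 0.77 to 0.82 in triadimefon and 0.86 to 0.93 in control, so that it was lower in all 9 treated livers, as Slc13a4 was. Kdr, a receptor for vascular growth factors, fell with myclobutanil and propiconazole, and Tek, the angiopoietin receptor gene, fell with propiconazole (limma adjusted p = 0.0407, 0.0268 and 0.0283), while no endothelium marker passed with triadimefon in limma (0 higher and 2 lower with an unadjusted p under 0.05). The mean level of 4 of 6 cholangiocyte markers was 0.21 to 0.26 in myclobutanil, 0.20 to 0.39 in propiconazole, 0.17 to 0.34 in triadimefon and 0.12 to 0.16 in control, above control in all 9 treated livers. None of the 4 passed in limma (1 higher with each compound, and 1, 0 and 0 lower, with an unadjusted p under 0.05). The median difference of the 4 was smaller, at 0.005 with myclobutanil, 0.019 with propiconazole and 0.059 with triadimefon. The mean level of 9 stellate cell markers overlapped control with every compound. It was 0.48 to 0.78 in myclobutanil, 0.48 to 0.52 in propiconazole, 0.55 to 0.82 in triadimefon and 0.48 to 0.62 in control. Of the 9, Lrat fell with myclobutanil and propiconazole and Rgs5 rose with myclobutanil (limma adjusted p = 0.0322, 0.0231 and 0.0344). The part of these cell types in the results on the sulfation genes was not tested. The mean level of the hepatocyte markers was 2.83 to 3.09 in myclobutanil and 3.02 to 3.14 in control, and none of the 11 passed with myclobutanil in limma (1 higher and 0 lower with an unadjusted p under 0.05). With propiconazole 1 of the 11 passed, as higher, and with triadimefon none did.

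**Figure D2:**
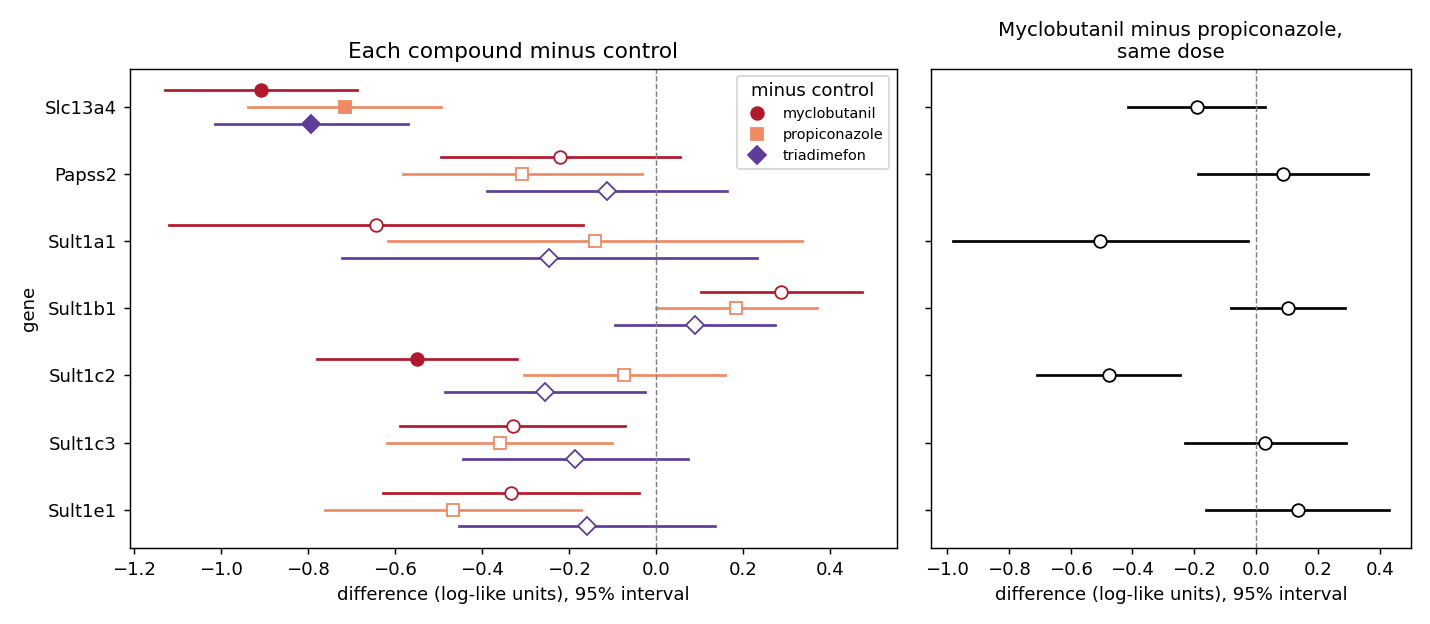
Differences in level with 95% intervals (x axis, log-like units) for the 7 tested genes, each compound minus control on the left and myclobutanil minus propiconazole on the right; filled symbols have an adjusted p under 0.05 over all 21729 probe sets, and Papss2 is shown by its brighter probe set. Slc13a4 is filled for all 3 compounds, from -0.91 to -0.72, and Sult1c2 for myclobutanil alone; no symbol is filled on the right.

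Myclobutanil and propiconazole, given at the same dose for the same time, were the 1 pair of compounds compared with each other. None of the 7 genes passed in limma (0 higher and 2 lower with an unadjusted p under 0.05), and limma called 0% of all probe sets between these groups, with 10.1% at an unadjusted p under 0.05. The largest difference of myclobutanil from propiconazole in proportion to its error was in Sult1c2, at -0.48 (95% interval -0.71 to -0.25, limma adjusted p = 0.231), where the groups did not overlap. That was the one gene of the 7 without overlap, against 13.4% of all probe sets. With array weights Sult1c2 passed (limma adjusted p = 0.0107), in a fit that called 343 of all probe sets where the main fit called 0. The difference in Sult1a1 was -0.50 (95% interval -0.98 to -0.03), and -0.20 (limma adjusted p = 0.637) without myclobutanil replicate 1.

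For the other genes the intervals of this pair spanned 0. The interval was -0.41 to 0.03 for Slc13a4, -0.19 to 0.36 for Papss2, -0.08 to 0.29 for Sult1b1, -0.23 to 0.29 for Sult1c3 and -0.16 to 0.43 for Sult1e1. With 3 arrays per group, differences inside these intervals could not be told from none. Triadimefon was given at a lower dose and was not compared with the other compounds.

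Other genes around sulfation were counted from lists, with 1 probe set per gene. Their counts with an unadjusted p under 0.05 stand against the 21.1%, 14.5% and 13.4% of all probe sets given above for myclobutanil, propiconazole and triadimefon, in either direction. Of 9 other cytosolic sulfotransferase genes, 5 were tested and none passed in limma with any compound (0, 0 and 1 higher and 2, 1 and 2 lower with an unadjusted p under 0.05 with myclobutanil, propiconazole and triadimefon). The class 1C gene Sult1c2a had levels of 1.16, 0.92 and 0.63 with myclobutanil, 1.03, 0.93 and 0.73 with propiconazole, 1.14, 0.92 and 1.01 with triadimefon, and 1.09, 1.58 and 1.42 in control. The propiconazole livers lay below control and the other treated livers overlapped it, and the differences were -0.46 ± 0.15, -0.47 ± 0.15 and -0.34 ± 0.15 (limma adjusted p = 0.125, 0.174 and 0.357). The cholesterol sulfotransferase gene Sult2b1 differed from control by -0.10 ± 0.04 with myclobutanil, by -0.08 ± 0.04 with propiconazole and by -0.09 ± 0.04 with triadimefon (limma adjusted p = 0.186, 0.371 and 0.339).

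Of 5 genes that supply PAPS or clear its by-product, all were tested and none passed with any compound in limma (1 higher with myclobutanil at an unadjusted p under 0.05). Bpnt1, whose enzyme breaks down the PAP left after sulfation, had differences of 0.36 ± 0.13 with myclobutanil, 0.13 ± 0.13 with propiconazole and 0.27 ± 0.13 with triadimefon (limma adjusted p = 0.152, 0.691 and 0.394), and the myclobutanil and triadimefon livers lay above control. Slc35b2, a Golgi PAPS transporter gene, differed by -0.09 ± 0.05, 0.02 ± 0.05 and 0.005 ± 0.053 (limma adjusted p = 0.366, 0.927 and 0.984).

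Of 9 genes of sulfate and sulfite supply, 8 were tested and none passed in limma (0 higher with each compound, and 3, 1 and 1 lower with an unadjusted p under 0.05 with myclobutanil, propiconazole and triadimefon). The hepatic sulfate anion exchanger gene Slc26a1 had levels of 1.57, 1.63 and 1.36 with myclobutanil, 1.69, 1.95 and 1.80 with propiconazole, 1.77, 1.85 and 1.89 with triadimefon, and 1.86, 1.80 and 1.85 in control. The myclobutanil livers lay below all others, with a difference from control of -0.32 ± 0.09 (limma adjusted p = 0.0937), and the other compounds gave -0.02 ± 0.09 and 0.001 ± 0.091 (limma adjusted p = 0.943 and 0.998). Ethe1, a mitochondrial persulfide dioxygenase gene, differed by -0.59 ± 0.18 with myclobutanil, -0.09 ± 0.18 with propiconazole and -0.23 ± 0.18 with triadimefon (limma adjusted p = 0.11, 0.876 and 0.633).

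Among 15 sulfatase genes, which remove sulfate, 9 were tested, and the lysosomal arylsulfatase gene Arsa was the one gene of any sulfation list past the test. Its level was 0.87, 1.01 and 0.98 with myclobutanil, 0.85, 0.82 and 0.82 with propiconazole, 0.90, 0.91 and 0.97 with triadimefon, and 1.10, 1.17 and 1.23 in control. All 9 treated livers lay below the control livers, a pattern whose share over all probe sets was not counted. Arsa fell by 0.34 ± 0.06 with propiconazole (limma adjusted p = 0.0268), and the differences with myclobutanil and triadimefon, -0.21 ± 0.06 and -0.25 ± 0.06, did not pass (limma adjusted p = 0.0918 and 0.101).

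Of 19 Golgi and membrane sulfotransferase genes, which act on proteins, glycans and lipids, 14 were tested and none passed with any compound in limma (0 higher with each, and 3, 1 and 0 lower with an unadjusted p under 0.05). The 2 with the smallest p, Chst10 and Gal3st1, differed from control by -0.08 ± 0.03 and -0.10 ± 0.04 with myclobutanil (limma adjusted p = 0.164 and 0.176). Their levels were low, from -0.01 to 0.14 for Chst10 and from -0.13 to 0.07 for Gal3st1. Probe sets with a mean up to -0.12 were left out as dim.

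**Figure D3:**
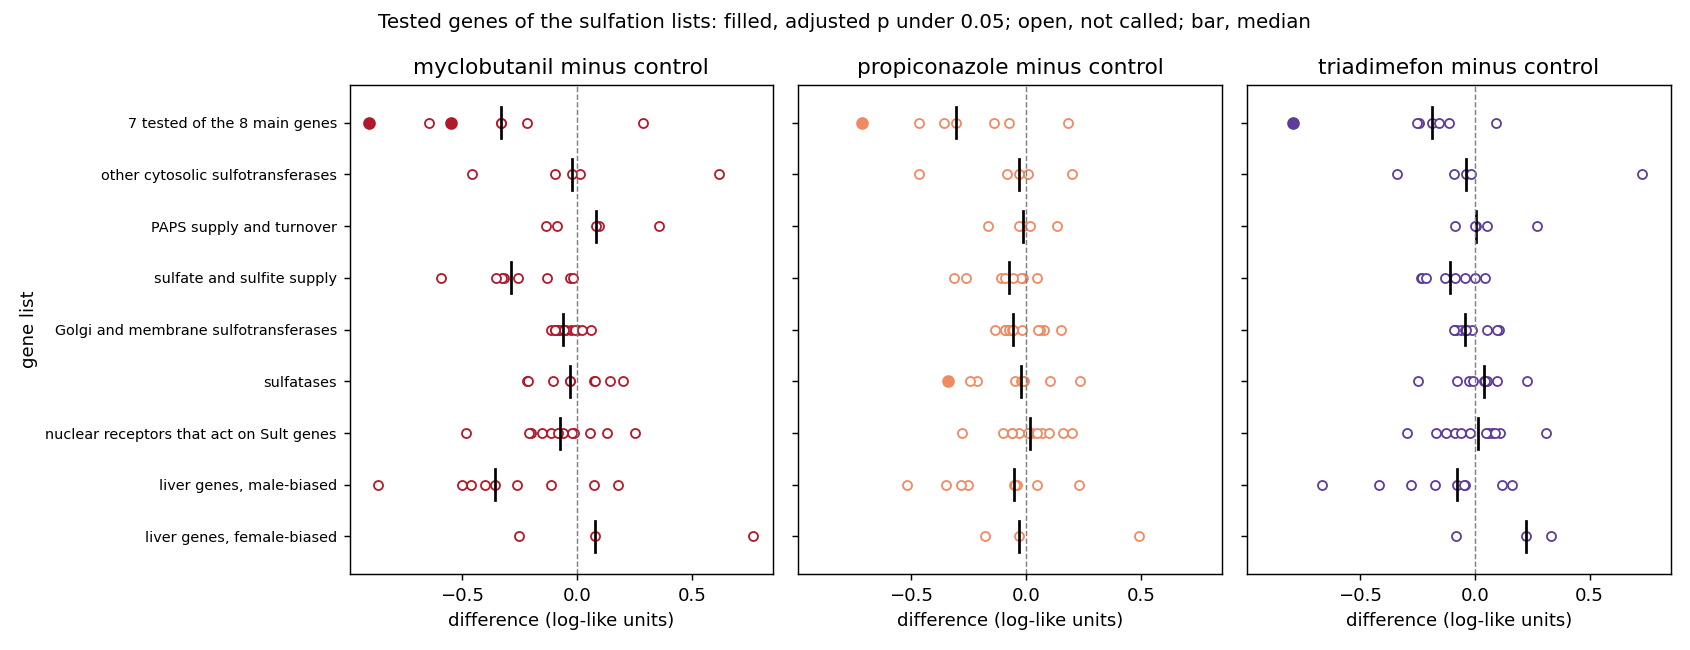
Differences from control (x axis, log-like units) of the tested genes of each list, 1 point per gene, for the 3 compounds; filled points have an adjusted p under 0.05 and black bars are medians. The filled points are Slc13a4 in every panel, Sult1c2 with myclobutanil and Arsa with propiconazole.

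Of 13 genes of nuclear receptors and other factors known to act on sulfotransferase genes, 12 were tested and none passed in limma (0, 1 and 1 higher and 1, 1 and 0 lower with an unadjusted p under 0.05 with myclobutanil, propiconazole and triadimefon). The coactivator gene Ppargc1a differed by 0.31 ± 0.08 with triadimefon and Ppara, the fatty acid receptor gene, by 0.16 ± 0.07 with propiconazole (limma adjusted p = 0.136 and 0.285). The level of Ppara was low on all 12 arrays, from -0.10 to 0.21. Of 9 male-biased liver genes, also read against those shares of all probe sets, all were tested and none passed in limma (1, 1 and 0 higher and 3, 4 and 1 lower with an unadjusted p under 0.05 with myclobutanil, propiconazole and triadimefon). Their median difference was -0.36 with myclobutanil, -0.05 with propiconazole and -0.08 with triadimefon. Igf1, the growth hormone target that encodes a circulating growth factor, had levels of 2.63, 2.98 and 2.91 with myclobutanil, 2.86, 2.92 and 2.97 with propiconazole, 3.12, 2.93 and 3.03 with triadimefon, and 3.19, 3.19 and 3.22 in control. All 9 treated livers lay below control, with differences of -0.36 ± 0.09, -0.28 ± 0.09 and -0.17 ± 0.09 (limma adjusted p = 0.0656, 0.155 and 0.426). The share of this pattern over all probe sets was not counted. In single comparisons with control, 23.3%, 27.8% and 28.3% of all probe sets had no overlap. Rgn, the regucalcin gene, differed by -0.87 ± 0.22, -0.52 ± 0.22 and -0.28 ± 0.22 (limma adjusted p = 0.0714, 0.303 and 0.63).

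Of 5 female-biased genes 3 were tested and none passed in limma (0 higher with each compound, and 1, 0 and 0 lower with an unadjusted p under 0.05). The P450 gene Cyp2c7 differed from control by -0.26 ± 0.09 with myclobutanil, -0.18 ± 0.09 with propiconazole and -0.08 ± 0.09 with triadimefon (limma adjusted p = 0.134, 0.372 and 0.721). Cyp2c12, the female-specific P450 gene, had levels of 2.63, 2.41 and 2.65 with myclobutanil, 2.18, 2.20 and 2.49 with propiconazole, 1.61, 1.83 and 2.62 with triadimefon, and 0.87, 2.08 and 2.44 in control. Every treated group overlapped control, control replicate 1 was the lowest of the 12 arrays, and the differences were 0.77 ± 0.35, 0.49 ± 0.35 and 0.22 ± 0.35 (limma adjusted p = 0.237, 0.565 and 0.836).

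The genes whose levels ran most like those of the described genes over the 12 arrays were taken by Pearson correlation, which rests partly on the shared group differences. For Slc13a4 they were C2cd2 (0.942), Stac3 (0.935) and Adam11 (0.929), and with the group means taken out the correlations were 0.656, 0.727 and 0.603. For Sult1c2 they were Apoc2 (0.902), Fbp1 (0.889) and Gnmt (0.88), which encode an apolipoprotein, a gluconeogenic phosphatase and glycine N-methyltransferase. For Sult1c3 they were Prkacb (0.944), Mbl2 (0.923) and Sdc2 (0.901), and for Sult1e1 Lypla1 (0.919), Fchsd2 (0.909) and Acss3 (0.899). For Sult1b1 they were Pcgf6 (0.892), Dnajc9 (0.86) and Ergic2 (0.849), and for Papss2 Ifi44l (0.877), Bbx (0.868) and Adap2 (0.841). For Sult1a1 they were Ezh1 (0.973), Bhmt (0.963) and Prss8 (0.959), which were 0.901, 0.854 and 0.869 without myclobutanil replicate 1.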

How the data were processed

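Total RNA from 12 individual rat livers was hybridised to Affymetrix rat expression arrays, per the labels' protocols. Each probe set has a deposited score on a log-like scale, between -1.00 and 4.83. How the authors summarised probes into this score, and its logarithm base, was not given in the sources used here.

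From 31099 probe sets, 57 controls were removed, the rest were quantile normalized, and the 30% with the lowest mean were left out (9313), which left 21729. limma 3.58.1 in R 4.3.3 fitted 4 group means over 12 arrays with an intensity trend. p-values were adjusted by Benjamini-Hochberg over all tested probe sets in each of 4 comparisons, with calls at an adjusted p under 0.05 and intervals at 95%. The fit was tested on simulated data. Of the 31042 probe sets without controls, 20826 had 1 annotated gene, 436 several and 9780 none; 20758 symbols were updated through RefSeq. A gene with several probe sets was taken by its brightest. Depth is not defined for arrays, whose number limits the precision.

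The members and lists were chosen with earlier results of these data known. Named were all members, list genes past the test or, where a list had none, its 2 with the smallest p, and the 3 genes most like each member. Array codes in the labels run in blocks by group. Their meaning is not stated, and if they mark a batch, batch and group cannot be told apart. Alternatives covered normalization, the filter, the variance model, array weights, a replicate block, the probe set rule and each array left out. Promoter windows were searched with Python 3.11.15 and aligned with biopython 1.88.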

Additional observations from a re-analysis of the deposited data

How the results depend on the processing

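Slc13a4 and Sult1c2 made 2 calls with myclobutanil, where 395 of all probe sets were called. The 2 calls became 0 when the 2 groups were fitted alone (8 of all probe sets called). Without variance moderation they became 1, Slc13a4 (208 called). Leaving out 1 array gave 1 to 2 (30 to 922 called). They became 3 on deposited values (Sult1a1 added, 322 called) and 3 with array weights (1668 called), where Sult1b1 was added as higher. The 1 call with propiconazole, where 311 of all probe sets were called, became 2 (Sult1e1 added) with its 2 groups alone (648 called). It became 0 to 1 with an array left out (35 to 170 called). The 1 call with triadimefon, where 167 of all probe sets were called, became 0 to 1 with an array left out (6 to 60 called). Between myclobutanil and propiconazole, 0 calls became 1 (Sult1c2, with 343 of all probe sets called) with array weights, whose estimation stopped before its tolerance. The arrays whose removal lost a call are named with their values in the results above. Over 28 gene results and 448 alternatives, 419 kept direction and call, 13 lost a call, 4 gained one and 12 changed sign.

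The sign changes were all in differences that had not passed. With propiconazole, Sult1b1 was -0.042 on deposited values and -0.026 with median centring. With 1 array left out, Sult1a1 ran from -0.216 to 0.0015 and Sult1c2 from -0.135 to 0.041, each above 0 without propiconazole replicate 3. With triadimefon, Sult1b1 was -0.096 and -0.085 on those scales, and Papss2 ran from -0.202 to 0.039, above 0 without control replicate 2. Between myclobutanil and propiconazole, Sult1c3 was -0.020 on deposited values, -0.058 with median centring and from -0.031 to 0.091 with 1 array left out, below 0 without myclobutanil replicate 2. For that pair Papss2 was -0.0089 with median centring and -0.073 as the mean of its probe sets. The cause was not tested.

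With the replicate number as a block the calls numbered 2, 1, 1 and 0 in the 4 comparisons, as without it. Deviations of same-numbered arrays had correlations from -0.494 to 0.495, with 3 of 18 over 0.1. The labels do not state whether the numbers pair rats. These correlations cannot settle it, since each deviation is taken from a mean of 3 arrays.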
